A study of Mus musculus with 96 samples.

Results

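The 9 genes described here handle heme and iron. Hmox1 and Blvrb break heme down, Fth1 and Ftl1 store iron, Tfrc, Steap3, Slc11a2 and Slc11a1 bring iron into the cytosol, and Slc40a1 exports it. In the GENCODE M21 annotation (mm10) Hmox1 spans chr8:75093621-75100589 on the plus strand, Fth1 chr19:9980598-9985098 (plus), Ftl1 chr7:45457944-45459884 (minus), Tfrc chr16:32608920-32632794 (plus), Slc40a1 chr1:45908068-45926523 (minus), Slc11a1 chr1:74375195-74386062 (plus), Slc11a2 chr15:100387898-100425072 (minus), Blvrb chr7:27447978-27466144 (plus) and Steap3 chr1:120190757-120272705 (minus). They were chosen by name for these roles, as 9 of the 50944 genes with values in every library, and all 9 passed the filter on low counts in each of the 4 cell types. Total RNA of hearts from male C57Bl/6J mice, 12 to 14 weeks old, was sequenced after acute myocardial infarction, made by tying off the left anterior descending coronary artery for good. Cardiomyocytes (CM) were spun down at low speed from the digested heart, endothelial cells (EC) were pulled out with beads against CD144, fibroblasts (FB) were the cells that attached to a dish within 40 min, and hematopoietic cells (HC) were pulled out with beads against CD45. The infarcted groups were taken at Day 1, Day 3, Day 7, Day 14 and Day 28, and the Day 0 mice were not operated on. The labels name no genetic change and no drug in any group. Each of the 24 groups had 4 libraries, 96 in all, and each library held RNA pooled from 3 mice (2 where a sample was missing). Libraries were made in a separate batch for each cell type, with RNA input and PCR cycles set by cell type, so cell type and batch cannot be told apart. On each day the pools of the 4 cell types came from the same animals, and the sources do not say that equal replicate numbers mark equal pools. In these bulk libraries, fewer cells of a type and less RNA per cell cannot be told apart either.

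Heme oxygenase opens the heme ring and releases iron, carbon monoxide and biliverdin, and its inducible form, Hmox1, is switched on by heme and by oxidative stress. Iron reaches most cells on transferrin, is taken in by the transferrin receptor, reduced in endosomes and passed into the cytosol, and what is not used is stored in ferritin or leaves through ferroportin. In an infarct, macrophages clear dying muscle and red cells and recycle the iron of their heme, and free iron drives the formation of reactive oxygen species.

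Iron responsive elements were found by sequence in transcripts of 4 of the 9 genes. They are short hairpins that iron regulatory proteins bind when iron is scarce. In a 5′ UTR the bound element holds back translation, and in the 3′ UTR of Tfrc it protects the mRNA from decay. The RNA level of Tfrc is therefore known to rise when iron is scarce and to fall when it is plentiful. Ferritin and ferroportin answer to iron mostly in protein. The 7 elements found are shown because they bear on how a change in RNA of these genes can be read. Each is 29 bases on the RNA strand of the GENCODE M21 annotation (mm10), written 5′ to 3′ as DNA, with the 6 bases of the loop (CAGTGN) in capitals.
Fth1, 5′ UTR of Fth1-201, chr19:9982732-9982760, plus strand: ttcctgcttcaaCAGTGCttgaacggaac
Ftl1, 5′ UTR of Ftl1-201, chr7:45459779-45459807, minus strand: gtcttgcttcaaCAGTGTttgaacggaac
Slc40a1, 5′ UTR of Slc40a1-201, chr1:45925465-45925493, minus strand: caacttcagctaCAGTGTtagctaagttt
Tfrc, 3′ UTR of Tfrc-201, first element, chr16:32631219-32631247, plus strand: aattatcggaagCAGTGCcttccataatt
Tfrc, 3′ UTR, second element, chr16:32631598-32631626, plus strand: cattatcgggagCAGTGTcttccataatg
Tfrc, 3′ UTR, next element, chr16:32631663-32631691, plus strand: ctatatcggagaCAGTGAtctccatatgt
Tfrc, 3′ UTR, last element, chr16:32631710-32631738, plus strand: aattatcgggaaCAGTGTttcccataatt
The search asked for a C, 5 bases, the loop CAGTGN and 5 bases that pair with those before the loop (A with U, G with C, or G with U), on the transcript strand only. A match was found in the 5′ UTR of 31 of 20580 genes (0.151%) and in the 3′ UTR of 129 of 20978 genes (0.615%). None was found in the UTRs of Hmox1, Blvrb, Slc11a1, Slc11a2 or Steap3, which says only that these letters are not there. A transcript form of Slc11a2 is known to carry such an element in its 3′ UTR, which a search this strict did not return. For Tfrc, the order words count only the matches found, and an element with another loop would not be returned.

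The libraries held 13490676 to 55692954 assigned reads in CM, 12409144 to 33774445 in EC, 2663598 to 36504975 in FB and 16169851 to 40345527 for HC, and rRNA genes took 53.4% to 68.2%, 11.5% to 30.8%, 2.83% to 35.6% and 9.83% to 32.2% of them in that order. FB Day 3 replicates 2 and 3 were the shallowest, with 2663598 and 3507868 reads. Of the 96 libraries, 8 stand apart by high levels of genes annotated opposite another gene: 3 of EC (replicates 1 and 2 of Day 0 and replicate 3 of Day 28), 3 of FB (replicates 2 and 3 of Day 3 and replicate 4 of Day 28) and 2 of HC (replicates 2 and 4 of Day 28). Capn12, annotated opposite Actn4, is an example, with 60.1 to 98.9 CPM (reads scaled to library size within a cell type) in the 3 EC libraries, against 3.07 CPM or less in the rest of EC. The isolates were enriched but not pure. The 4 markers of each cell type that the study used were highest in their own isolate by median TPM (a level per transcript length, scaled to library total), but the CM markers (Tnnt2, Tnni3, Nppb and Actc1) still summed to a median of 418 TPM in EC and 310 TPM in HC, against 1110 TPM in CM. Hemoglobin and other erythroid genes summed to a median of 4720 TPM in FB, 1150 TPM in EC, 390 TPM in HC and 8.07 TPM in CM. The HC markers, Ptprc among them, summed to at most 1.40 TPM in any library outside HC.

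**Figure D1:**
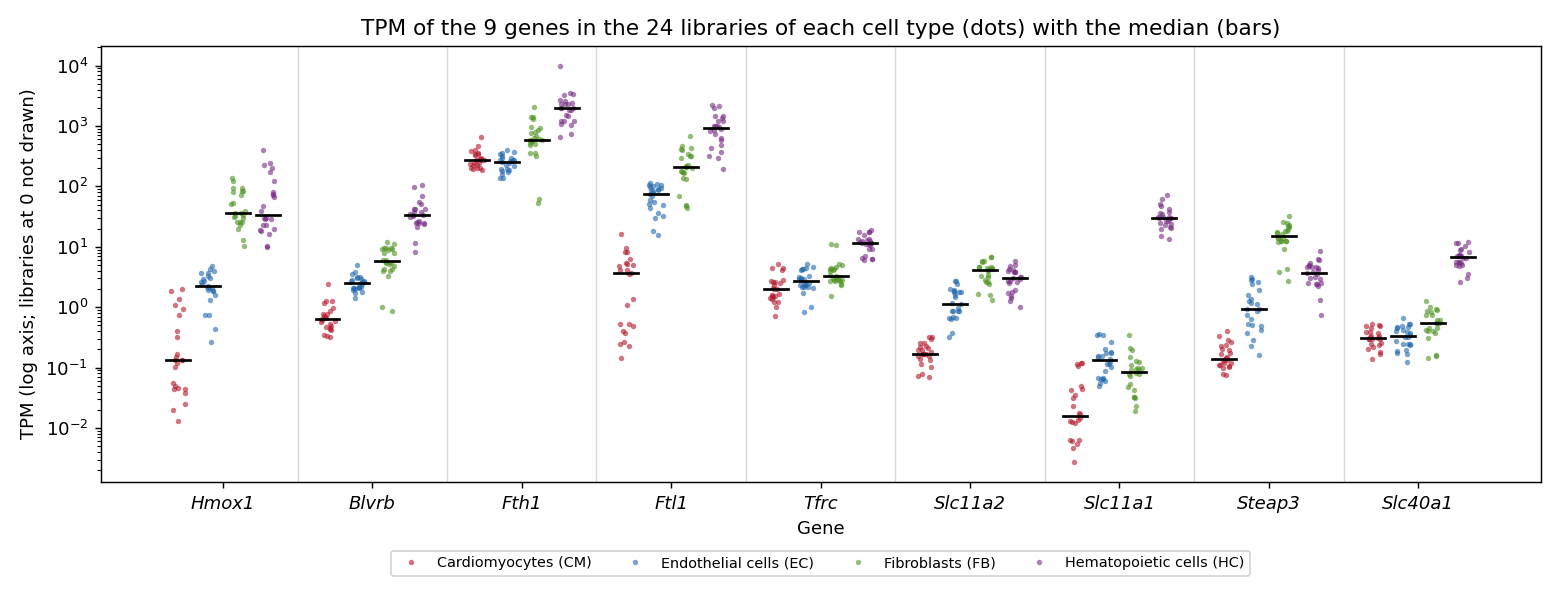
TPM (log axis) of the 9 genes in the 24 libraries of each cell type (dots), with the median as a bar. Slc11a1 and Slc40a1 in HC lie above every library of the other cell types, and Hmox1 and Steap3 are highest by median in FB.

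Among the cell types, HC held the highest median TPM of Slc11a1, Slc40a1, Blvrb, Tfrc, Fth1 and Ftl1, and FB that of Hmox1, Slc11a2 and Steap3. CM held the lowest median TPM of every gene except Fth1, which was lowest in EC. TPM are scaled to the library total, and rRNA genes took 53.4% to 68.2% of CM reads. In the edgeR fit over all libraries, Fth1, Tfrc and Slc40a1 were instead higher in CM than in the mean of the others. Slc11a1, a phagosomal metal transporter known from macrophages, had a median of 30.1 TPM in HC (13.3 to 71.1), against 0.132 TPM in EC, 0.0858 TPM in FB and 0.0156 TPM in CM. No HC library overlapped any other library for this gene. Slc40a1, which encodes ferroportin, the exporter of cellular iron, had a median of 6.70 TPM in HC (2.64 to 12), against 0.550 TPM in FB, 0.333 TPM in EC and 0.306 TPM in CM, again without overlap between HC and the rest. Hmox1 had a median of 36.4 TPM in FB (10.4 to 137) and 34.1 TPM in HC (9.93 to 396), against 2.20 TPM in EC (0.263 to 4.80) and 0.132 TPM in CM (0.0131 to 2.01). Over all days the FB and HC ranges of Hmox1 overlapped, and both lay above all EC and CM libraries. Within a day they could part in either direction. At Day 0 FB held 71.6 to 93.6 TPM and HC 10.4 to 19.8 TPM. At Day 3 HC held 200 to 396 TPM and FB 10.4 to 34.1 TPM.

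Fth1 had the highest median of the 9 genes in every cell type when Ftl1 was counted without its pseudogenes. The Fth1 medians were 1960 TPM in HC, 596 TPM in FB, 278 TPM in CM and 257 TPM in EC, and neighbours in that order overlapped. With reads of annotated pseudogenes added to both chains, the median ratio of Fth1 to Ftl1 was 0.871 in HC (0.732 to 1.85) and 1.04 in FB (0.467 to 2.04). Steap3, an endosomal ferrireductase, had a median of 15.3 TPM in FB (2.67 to 31.9), against 3.74 TPM in HC, 0.943 TPM in EC and 0.141 TPM in CM. Its FB range overlapped that of HC (0.737 to 8.35 TPM) only in FB Day 3 replicates 2, 3 and 4 (2.67, 4.34 and 3.87 TPM). Tfrc, the transferrin receptor, had medians of 11.6 TPM in HC, 3.23 TPM in FB, 2.68 TPM in EC and 1.98 TPM in CM, and Slc11a2, which carries reduced iron out of endosomes, had 4.14 TPM in FB, 2.99 TPM in HC, 1.13 TPM in EC and 0.168 TPM in CM. Blvrb, a biliverdin reductase, had 33.5 TPM in HC, 5.80 TPM in FB, 2.49 TPM in EC and 0.626 TPM in CM.

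In the edgeR fit over all 96 libraries, each cell type was set against the mean of the other 3. In HC 7 genes were called and all 7 were higher (78.4% of all genes tested were called in this comparison, in either direction). The differences were 7.46 ± 0.07 for Slc11a1, 3.35 ± 0.19 for Ftl1, 3.01 ± 0.07 for Hmox1, 2.81 ± 0.05 for Slc40a1, 2.70 ± 0.07 for Blvrb, 1.22 ± 0.07 for Fth1 and 0.46 ± 0.08 for Tfrc (log2 ± SE), with edgeR adjusted p of 1.2e-07 or less. In FB all 9 were called, 4 higher and 5 lower (73.7% of all genes), led by Hmox1 at 2.97 ± 0.07 and Steap3 at 2.75 ± 0.06. In EC all 9 were called and all were lower (71.2% of all genes), the most negative being Hmox1 at -2.48 ± 0.08 and Slc11a1 and Slc40a1 at -2.16. In CM 8 were called, 3 higher and 5 lower (81.4% of all genes). Of these, the higher calls of Fth1 (1.60), Tfrc (2.34) and Slc40a1 (0.95) in CM turned to -1.17, -0.95 and -0.92 by limma on log2(TPM + 1), and in FB the lower calls of Fth1 (-0.72) and Blvrb (-0.36) turned to 0.17 and 0.19. TMM scaling factors were 0.197 to 0.348 in CM libraries, against 1.02 to 2.08 in the other cell types, and Steap3, lower in CM over all days (-0.77), was 0.20 with the Day 0 libraries only.

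**Figure D2:**
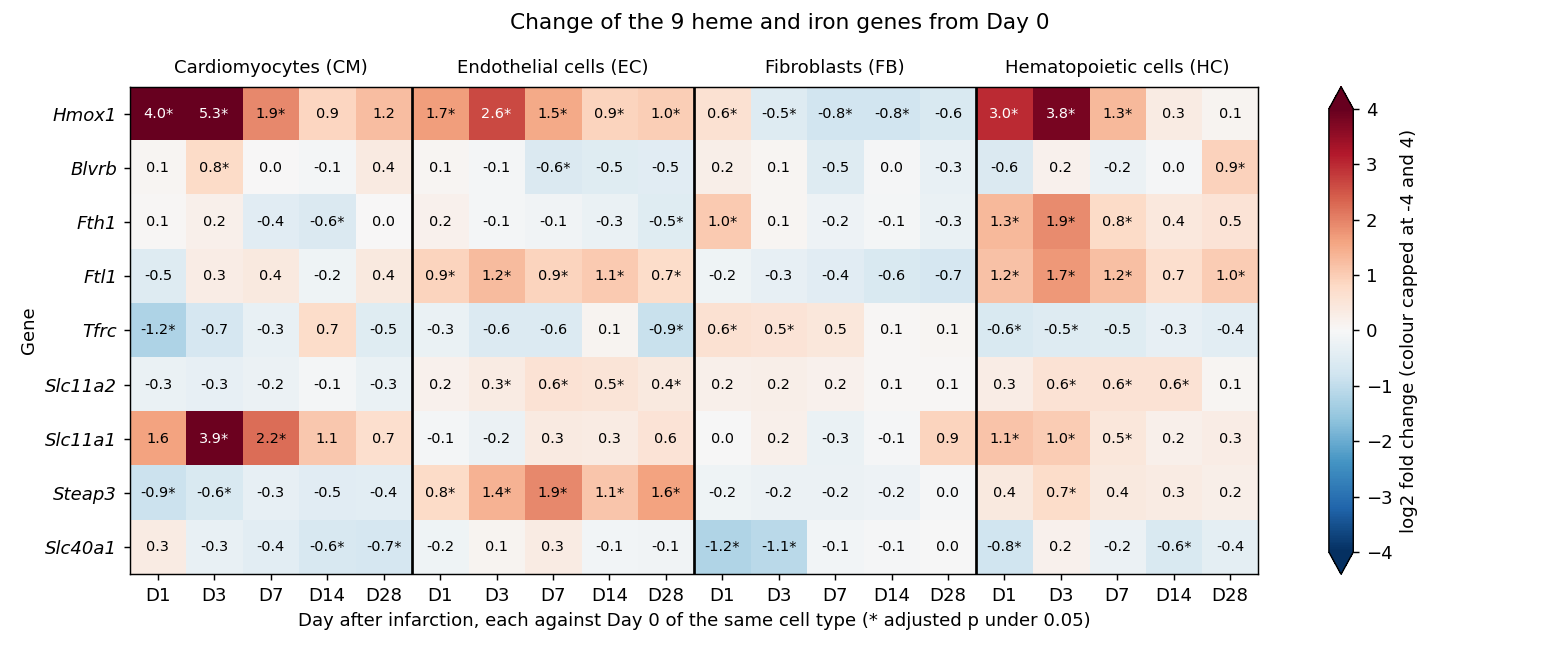
Log2 fold change of each gene at each day against Day 0 of the same cell type, from edgeR. Rows are genes, columns are days within CM, EC, FB and HC, and an asterisk marks an adjusted p under 0.05. Hmox1 is higher at Day 1 and Day 3 in CM, EC and HC, and lower at Day 3 in FB.

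Each later day was then compared with Day 0. In CM, 3 of the 9 genes were called at Day 1 (1 higher and 2 lower, with 11.4% of all genes tested called in that comparison), 4 at Day 3 (3 and 1, 30.5% of all genes), 2 at Day 7 (both higher, 13.3%), 2 at Day 14 (both lower, 13.8%) and 1 at Day 28 (lower, 3.58%). In EC, 3 were called at Day 1 (all higher, 19.0%), 4 at Day 3 (all higher, 45.5%), 5 at Day 7 (4 higher and 1 lower, 37.6%), 4 at Day 14 (all higher, 27.0%) and 6 at Day 28 (4 higher and 2 lower, 33.7%). In FB, 4 were called at Day 1 (3 higher and 1 lower, 17.9%), 3 at Day 3 (1 and 2, 49.1%), 1 at Day 7 (lower, 14.3%), 1 at Day 14 (lower, 10.9%) and none at Day 28 (3.49%). In HC, 6 were called at Day 1 (4 higher and 2 lower, 41.8%), 7 at Day 3 (6 and 1, 46.4%), 5 at Day 7 (all higher, 27.9%), 2 at Day 14 (1 and 1, 12.9%) and 2 at Day 28 (both higher, 21.8%).

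With 9 genes, 1 call is a larger step than the gap to the share of all genes in many of these comparisons. Over the 5 days, CM had 6 higher and 6 lower calls of 45, EC 19 and 3, FB 4 and 5, and HC 18 and 4. The totals of FB, HC and CM depend on the processing. FB had 16 calls in place of 9 without the libraries that stand apart. HC had 9 in place of 22 by limma on log2(TPM + 1) and 11 on TMM-scaled TPM, and CM had 7 in place of 12 by limma on log2(TPM + 1). The study's methods left out outlying replicates of FB at Day 3 and of HC at Day 28, and all 96 libraries are used here. At Day 3 the median log2 fold change of the 9 genes was 0.20 in CM, 0.12 in EC, 0.08 for FB and 0.72 for HC, against -0.06, -0.03, -0.02 and -0.02 for all genes tested in that order. FB at Day 28 had no member called by edgeR, where 3 members (Hmox1, Ftl1 and Slc11a1) had an unadjusted p under 0.05, and 1 called by DESeq2 (Hmox1).

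Heme breakdown was led by Hmox1. In HC it was 542, 375, 404 and 613 CPM at Day 1 and 885, 1020, 832 and 729 CPM at Day 3, against 62.2, 57.0, 68.1 and 59.2 CPM at Day 0. All 4 libraries of either day lay above all 4 of Day 0. The change was 7.84-fold at Day 1 (log2 2.97 ± 0.20, edgeR adjusted p = 2.5e-10) and 14.1-fold at Day 3 (3.81 ± 0.21, 1.4e-11). At Day 7 Hmox1 was 148, 99.6, 211 and 146 CPM in HC, still above each Day 0 library (1.29 ± 0.19, edgeR adjusted p = 1.9e-05). At Day 14 and Day 28 the differences were 0.33 ± 0.19 and 0.12 ± 0.19 (edgeR adjusted p = 0.32 and 0.69). In these libraries the 7 neutrophil markers were all higher at Day 1 and Day 3, summing to 1890 to 3310 and 484 to 1040 CPM, against 144 to 284 CPM at Day 0, and 6 of 7 monocyte markers were higher at both days. Of 10 resident macrophage markers, 6 were lower at Day 1 and 3 at Day 3. The part of this change in cell makeup in the Hmox1 result was not tested.

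**Figure D3:**
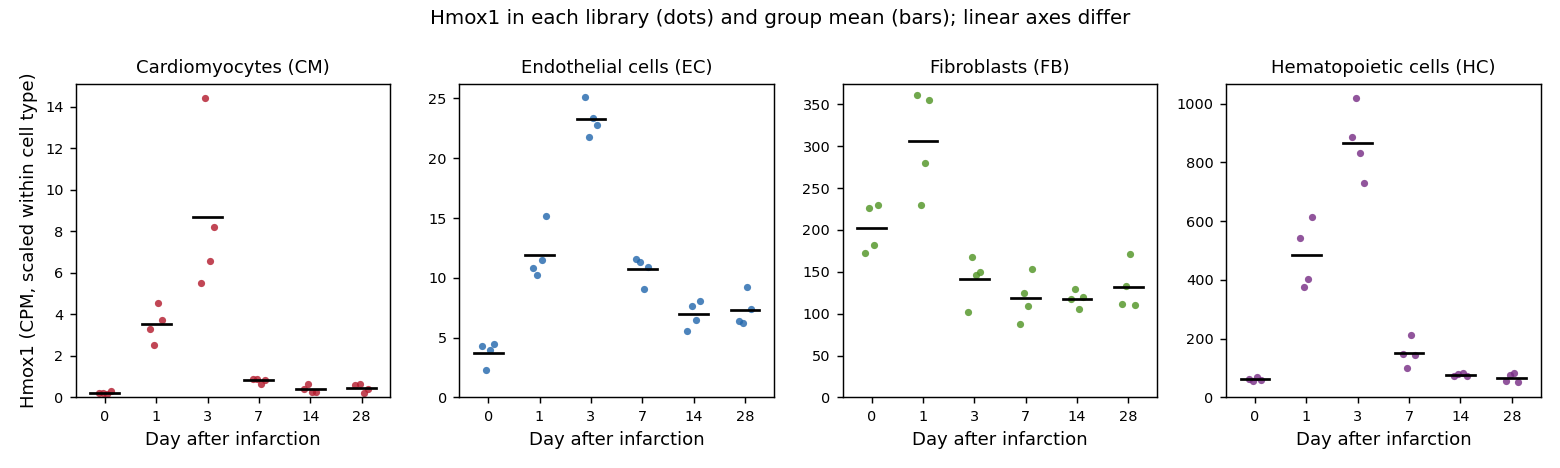
Hmox1 level (CPM scaled within a cell type, linear axes that differ between panels) in each library (dots) at each day, with group means as bars. HC libraries at Day 3 lie between 729 and 1020 CPM, all above those of Day 0, while FB libraries at Day 7 lie between 88.1 and 153 CPM, all below those of Day 0.

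In CM, Hmox1 was 3.28, 2.52, 4.55 and 3.75 CPM at Day 1 and 5.53, 14.4, 6.57 and 8.21 CPM at Day 3, against 0.196, 0.213, 0.147 and 0.287 CPM at Day 0. Day 0 rested on 4 to 12 reads a library and Day 3 on 228 to 686, and the groups did not overlap. The change was 16.1-fold at Day 1 (log2 4.01 ± 0.35, edgeR adjusted p = 3.2e-08) and 39.5-fold at Day 3 (5.30 ± 0.34, 1.3e-10), and at Day 7 it was 3.75-fold (1.91 ± 0.38, 0.0011). At Day 14 and Day 28 Hmox1 was not called (0.86 ± 0.41 and 1.22 ± 0.41, edgeR adjusted p = 0.17 and 0.082). Macrophage markers moved in the same CM libraries. All 7 pan-macrophage markers were higher at Day 3, summing to 41.6 to 68.2 CPM, against 2.39 to 3.03 CPM at Day 0, and so were all 8 resident macrophage and all 5 monocyte markers tested. Their part in the Hmox1 change in CM was not tested. At Day 3 the level of Hmox1 in CM was 0.742 to 2.01 TPM, and in HC of the same day 200 to 396 TPM.

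In EC, Hmox1 was 10.8, 10.2, 11.5 and 15.2 CPM at Day 1 and 25.1, 21.8, 23.4 and 22.8 CPM at Day 3, against 4.27, 2.31, 3.98 and 4.46 CPM at Day 0. It was above Day 0 in all 4 libraries of every later day. The log2 fold changes were 1.67 ± 0.18, 2.63 ± 0.18, 1.51 ± 0.18, 0.88 ± 0.18 and 0.97 ± 0.18 from Day 1 to Day 28, with edgeR adjusted p between 1.2e-09 and 0.0016. EC was the only cell type in which Hmox1 was called at Day 14 and Day 28 as higher. Some markers of cell types with more Hmox1 moved in the same EC libraries. Of the 7 resident macrophage markers tested, 5 were higher at Day 7 and 5 at Day 28, summing to 61.5 to 85.2 and 40.4 to 62.5 CPM, against 23.3 to 28.8 CPM at Day 0. At Day 28 4 of 5 monocyte markers were higher. The FB markers were higher at Day 7 (3 of 4) and Day 28 (4 of 4). At Day 3, where Hmox1 was highest, 2 of 5 monocyte, 2 of 7 resident macrophage and 1 of 4 FB markers were higher. The pan-macrophage markers, 2 called higher and 2 lower, summed to 39.3 to 46.0 CPM at Day 3, against 51.8 to 55.0 CPM at Day 0. No HC marker was called at Day 3. Of 3 HC markers tested, 2 were higher at Day 28, summing to 5.18 to 12.3 CPM, against 2.79 to 3.57 CPM at Day 0. Of 6 pan-macrophage markers, 3 were higher at Day 7 (1 lower), 3 at Day 14 and 3 at Day 28. At Day 14, 4 of 7 resident macrophage markers (1 lower) and 3 of 5 monocyte markers were higher. The part of these markers in the Hmox1 result in EC was not tested.

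Fibroblasts went the other way after the first day. Hmox1 was 361, 230, 280 and 355 CPM at Day 1, against 172, 226, 182 and 230 CPM at Day 0, with the lowest Day 1 library at the level of the highest Day 0 library. The rise was 0.60 ± 0.19 (edgeR adjusted p = 0.027), and it missed the threshold without FB Day 0 replicate 1 or 3 or Day 1 replicate 1 or 4 (0.51 to 0.55). At Day 3 Hmox1 fell to 102, 168, 146 and 150 CPM (-0.52 ± 0.19, edgeR adjusted p = 0.025), at Day 7 to 88.1, 125, 109 and 153 CPM (-0.77 ± 0.19, 0.0057), and at Day 14 to 117, 129, 105 and 120 CPM (-0.78 ± 0.19, 0.0066), each day without overlap with Day 0. The Day 3 call was lost without FB Day 0 replicate 2 or 4 or Day 3 replicate 1 (-0.48 to -0.40). At Day 28 the 4 libraries (112, 133, 171 and 110 CPM) also lay below Day 0, at -0.62 ± 0.19, which was not called (edgeR adjusted p = 0.068) but was called by DESeq2 (-0.60, adjusted p = 0.031). The FB markers were lower in the same libraries, 4 of 4 at Day 3 (summing to 746 to 1240 CPM, against 1860 to 1980 CPM at Day 0), 3 of 4 at Day 7 and 2 of 4 at Day 14. At Day 3 all 4 CM markers and 4 of 6 resident macrophage markers were called higher. The CM markers summed to 12.2 to 520 CPM at Day 3, which overlapped Day 0 (22.5 to 44.0 CPM). The resident macrophage markers summed to 7.64 to 41.4 CPM, against 4.63 to 6.82 CPM at Day 0. The part of all these markers in the Hmox1 fall was not tested. Fibroblasts stood apart from the other cell types in this gene: the change to Day 3 differed from the mean change in the other 3 by -4.72 ± 0.27 in log2 (edgeR adjusted p = 6.1e-25), and the change to Day 1 by -2.37 ± 0.25 (5.2e-11).

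Blvrb, which reduces biliverdin and flavins, changed little beside Hmox1. In CM it was 1.99, 1.89, 2.62 and 2.76 CPM at Day 3, against 1.08, 1.66, 1.32 and 1.39 CPM at Day 0, which was higher by 0.75 ± 0.23 (edgeR adjusted p = 0.015) with no overlap. The macrophage markers rose in the same CM Day 3 libraries, and their part in the Blvrb result was not tested. In HC Blvrb was 71.7, 55.9, 69.2 and 149 CPM at Day 28, against 42.2, 41.5, 53.5 and 47.2 CPM at Day 0. All 4 Day 28 libraries lay above Day 0, but replicate 4, one of the libraries that stand apart, was far above the rest. The change was 0.91 ± 0.28 (edgeR adjusted p = 0.022), and it was lost without HC Day 28 replicate 4 or HC Day 0 replicate 1 or 2 (0.52 to 0.89) and without the libraries that stand apart (0.61 ± 0.26, 0.17). In EC Blvrb was lower at Day 7 with overlapping groups (-0.59 ± 0.22, edgeR adjusted p = 0.04), and with a replicate block the adjusted p was 0.05 and the call was lost. That call was lost without EC Day 0 replicate 1 or 2 or Day 7 replicate 2, 3 or 4 (-0.59 to -0.43), and without the EC libraries that stand apart it was -0.24 ± 0.24 (0.51).

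Ferritin transcripts were higher in HC early after infarction than at Day 0. Fth1, the ferritin heavy chain that oxidises iron as it enters the shell, was 3650, 2430, 1990 and 4370 CPM at Day 1 and 3690, 3440, 3880 and 7840 CPM at Day 3, against 1160, 1120, 1450 and 1330 CPM at Day 0. The groups did not overlap, and Day 3 replicate 4 was the highest. The change was 2.46-fold at Day 1 (1.30 ± 0.26, edgeR adjusted p = 0.00039), 3.73-fold at Day 3 (1.90 ± 0.27, 4.5e-06) and 1.71-fold at Day 7 (0.77 ± 0.26, 0.03). The Day 7 call was lost without HC Day 0 replicate 1, 2 or 4 or Day 7 replicate 1, 2 or 4 (0.72 to 0.80). At Day 14 and Day 28 Fth1 in HC was not called (0.41 ± 0.26 and 0.54 ± 0.26, edgeR adjusted p = 0.39 and 0.14). All 7 neutrophil markers and 6 of 7 monocyte markers were higher in the HC libraries of Day 1 and Day 3. Of 7 pan-macrophage markers, 3 were higher and 1 lower at Day 1, and 5 higher and 1 lower at Day 3. The part of these markers in the ferritin results in HC was not tested.

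In FB, Fth1 was 1760, 1260, 1660 and 1450 CPM at Day 1, against 734, 744, 694 and 815 CPM at Day 0, a 2.05-fold rise without overlap (1.04 ± 0.28, edgeR adjusted p = 0.012). At Day 3 the FB libraries split: replicates 1 and 4 held 1010 and 1320 CPM of Fth1, and the shallow replicates 2 and 3, which stand apart, held 446 and 370 CPM. With all 4 the change was 0.08 ± 0.28 (edgeR adjusted p = 0.84), and without the libraries that stand apart it was 0.66 ± 0.19 (0.0073). In EC, Fth1 was lower at Day 28 (-0.48 ± 0.16, edgeR adjusted p = 0.024) with overlapping groups, a call that was lost without EC Day 0 replicate 1 or 2 or Day 28 replicate 1, 2 or 3 (-0.46 to -0.36) and was -0.20 ± 0.19 without those that stand apart (0.52). By limma on log2(TPM + 1) it turned to 0.77. In CM, Fth1 was lower at Day 14, at 486, 273, 332 and 371 CPM, against 526, 645, 513 and 492 CPM at Day 0, without overlap (-0.57 ± 0.18, edgeR adjusted p = 0.033). That call was lost without CM Day 0 replicate 1, 2 or 3 or Day 14 replicate 2, 3 or 4 (-0.59 to -0.46).

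**Figure D4:**
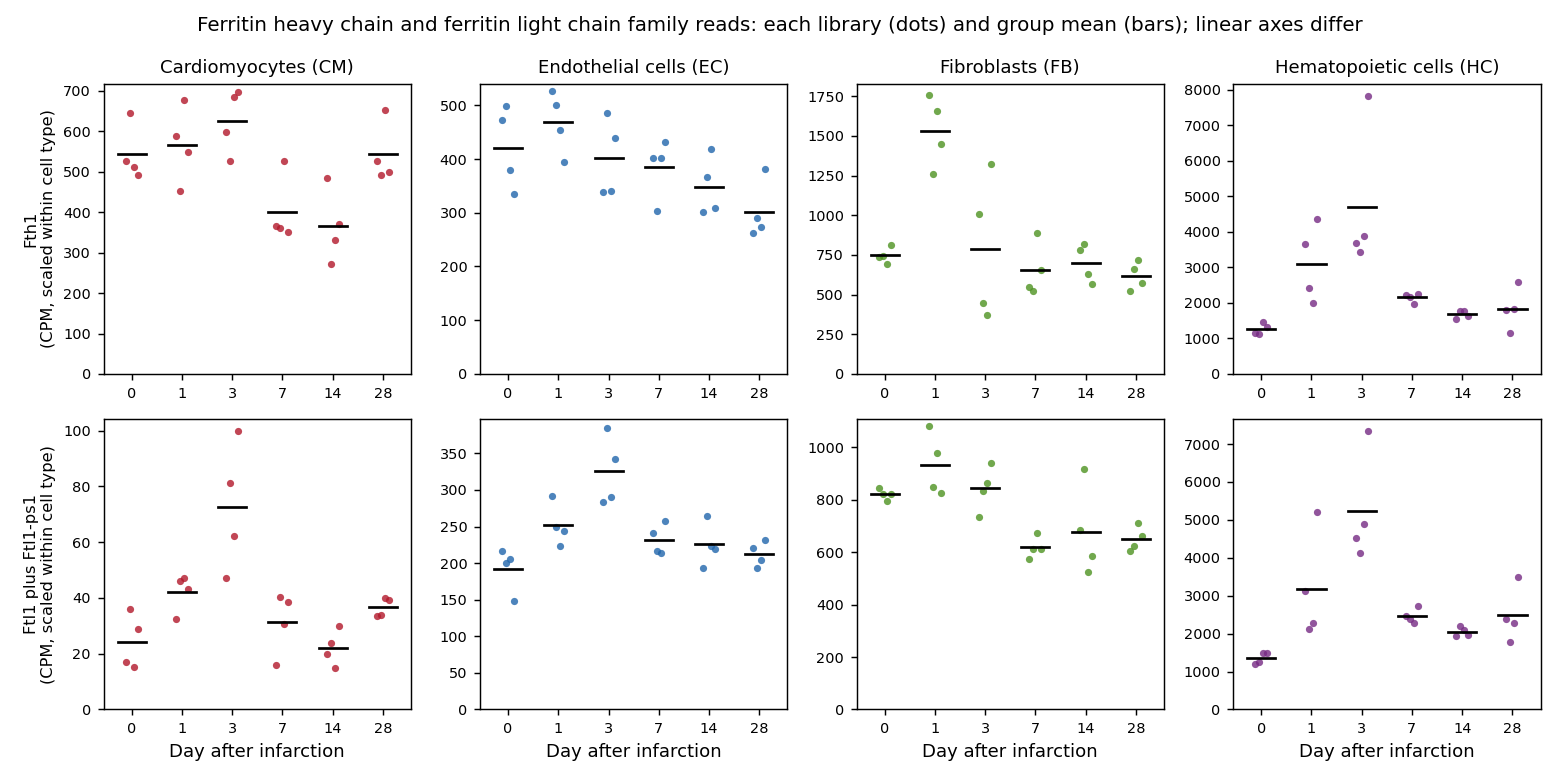
Fth1 (top) and the sum of Ftl1 and Ftl1-ps1 (bottom) in each library (dots) at each day, with group means as bars, in CPM scaled within a cell type on linear axes that differ between panels. In HC both lie above Day 0 at Day 1 and Day 3 in all 4 libraries, and in FB Fth1 at Day 3 has libraries at 1010 and 1320 CPM and at 446 and 370 CPM.

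Ftl1, the light chain that helps the iron core form, cannot be counted well on its own. Of the 31-base words of Ftl1-201, 85.4% also occur in other annotated genes, and 80.6% in the pseudogene Ftl1-ps1, against 12.9% of the words of Fth1-201 and 3.76% or less in the other members. The split of reads between Ftl1 and its copies was uneven between libraries. In CM, Ftl1 was 0.477 and 0.880 CPM in Day 0 replicates 3 and 1 but 14.0 and 11.1 CPM in replicates 2 and 4, and at Day 3 0.630 and 0.344 CPM in replicates 1 and 3 but 9.54 and 22.6 CPM in replicates 2 and 4. Ftl1 was therefore also tested with the reads of its annotated pseudogenes added. The sum of Ftl1 and Ftl1-ps1 was 47.0, 81.1, 62.3 and 99.9 CPM in CM at Day 3, against 16.9, 36.2, 15.4 and 28.7 CPM at Day 0, without overlap. With the pseudogene reads added Ftl1 was higher in CM at Day 3 by 1.57 ± 0.29 (edgeR adjusted p = 0.00031), and alone it was not called (0.29 ± 1.20, 0.88). All 7 pan-macrophage, all 8 resident macrophage and all 5 monocyte markers tested were higher in the same CM libraries. Their part in this rise was not tested.

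In HC the 2 ways of counting gave the same calls for each later day against Day 0. With the pseudogene reads added, Ftl1 was also lower in HC at Day 28 than at Day 3 (-1.07 ± 0.24, edgeR adjusted p = 0.0013). Its HC changes to Day 1 and Day 3 were larger than the mean of the other 3 cell types (0.86 and 1.28, edgeR adjusted p = 0.0066 and 2.5e-05). Ftl1 alone was not called in these 3 comparisons (-0.74, 1.19 and 1.47, edgeR adjusted p = 0.066, 0.28 and 0.13). Ftl1 alone was 1830, 1900, 1960 and 1660 CPM at Day 3, against 685, 511, 491 and 524 CPM at Day 0, without overlap. Its changes were 1.18 ± 0.32 at Day 1, 1.73 ± 0.32 at Day 3, 1.19 ± 0.32 at Day 7 and 1.00 ± 0.32 at Day 28 (edgeR adjusted p = 0.0049, 0.00013, 0.0071 and 0.029), and with the pseudogene reads added 1.24 ± 0.24, 1.95 ± 0.25, 0.87 ± 0.24 and 0.88 ± 0.24. The Day 28 call of Ftl1 alone was lost without HC Day 0 replicate 2, 3 or 4 or Day 28 replicate 1 or 4 (0.61 to 0.99). In EC, Ftl1 alone was called at every later day, at 0.74 to 1.25 in log2. With the pseudogene reads added, EC kept the calls at Day 1 (0.39 ± 0.12, edgeR adjusted p = 0.029) and Day 3 (0.76 ± 0.12, 3.5e-05), while Day 7, Day 14 and Day 28 were at 0.27, 0.23 and 0.15 and were not called. In FB Ftl1 was not called at any day, at -0.68 to -0.16. With the pseudogene reads added it was -0.41 to 0.18 and again not called.

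The ratio of heavy to light chain transcripts, in TPM within a library, does not depend on the scaling between libraries. Its median was 86.5 in CM, 3.64 in EC, 2.78 for FB and 2.27 for HC, and with pseudogenes added to both chains 27.2, 1.72, 1.04 and 0.871 in that order. Reads of Gm6977, which holds 11.3% of the 31-base words of Fth1-201, were not among those added to Fth1. The ratio lay below all Day 0 libraries in EC at Day 3, Day 7, Day 14 and Day 28 and above them in FB at Day 1, 5 of 20 comparisons. In FB at Day 1 the log2 ratio was 2.32 ± 0.47, against 0.96 ± 0.39 at Day 0 (SD, n = 4 each), and the two-sided exact permutation p was 0.0286, the smallest that 4 against 4 can give (adjusted over the 20 comparisons 0.11). With pseudogenes added, FB Day 1 stayed above Day 0 (0.76 ± 0.10, against -0.17 ± 0.11), and 8 comparisons parted in all. These were FB Day 1 and HC Day 1 with a higher ratio (HC 0.32 ± 0.38, against -0.15 ± 0.07 at Day 0). The ratio was lower at CM Day 1, Day 3 and Day 28, EC Day 28, and HC Day 14 and Day 28 (CM Day 3 3.85 ± 0.81, against 5.36 ± 0.62 at Day 0). Each had the same exact permutation p of 0.0286 (0.071 adjusted over the 20 comparisons).

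The transcript of the transferrin receptor was lower in CM and higher in FB at Day 1. In CM, Tfrc fell to 16.1, 21.2, 7.70 and 15.5 CPM at Day 1, against 30.8, 32.6, 43.2 and 34.4 CPM at Day 0, without overlap. The change was -1.22 ± 0.30, or 2.34-fold lower (edgeR adjusted p = 0.01). In FB, Tfrc was 15.9, 21.9, 19.8 and 24.6 CPM at Day 1, against 11.8, 11.3, 15.8 and 14.8 CPM at Day 0, with 15.9 and 15.8 CPM as the nearest values. That rise was 0.61 ± 0.20 (edgeR adjusted p = 0.031) and was lost without FB Day 0 replicate 1, 2 or 4 or Day 1 replicate 2, 3 or 4 (0.52 to 0.67). The change to Day 1 differed from the mean change in the other 3 cell types by -1.16 ± 0.28 in CM and by 1.23 ± 0.28 in FB (edgeR adjusted p = 0.0028 and 0.001). The CM difference was -0.88 and not called without replicate 3 of every group.

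At Day 3 Tfrc in FB was 23.6, 14.9, 11.1 and 24.3 CPM, and the call (0.54 ± 0.20, edgeR adjusted p = 0.031) rested on replicates 1 and 4, since replicates 2 and 3 held 22 reads each. It was lost without FB Day 0 replicate 1 or 2 or Day 3 replicate 1 or 4 (0.39 to 0.47). In HC, Tfrc was 53.3, 48.9, 48.9 and 47.0 CPM at Day 1, against 65.3, 78.9, 84.9 and 74.8 CPM at Day 0, lower without overlap (-0.62 ± 0.19, edgeR adjusted p = 0.011). It was also lower in HC at Day 3 with overlapping groups (-0.51 ± 0.19, 0.03), a call lost without HC Day 0 replicate 2, 3 or 4 or Day 3 replicate 3 or 4 (-0.52 to -0.34). In the HC libraries of both days 7 of 8 erythroid markers tested, all 4 CM, all 4 EC and all 4 FB markers were lower. The erythroid markers summed to 141 to 659 CPM at Day 1, against 890 to 1530 CPM at Day 0. The part of all these markers in the Tfrc result in HC was not tested. In EC, Tfrc was 19.8, 19.0, 19.2 and 19.1 CPM at Day 28, against 28.4, 37.1, 30.1 and 46.8 CPM at Day 0, without overlap (-0.89 ± 0.23, edgeR adjusted p = 0.0052), though limma on log2(TPM + 0.1) gave 0.06. In CM at Day 14 it was 60.0, 53.8, 84.1 and 38.0 CPM, overlapping Day 0, and was not called (0.74 ± 0.30, 0.1).

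Steap3 moved most in endothelial cells. The protein reduces ferric iron in endosomes so that it can be carried out. In EC it was 11.3, 9.78, 10.8 and 8.34 CPM at Day 3 and 11, 11.9, 20.8 and 13.7 CPM at Day 7, against 3.03, 4.16, 4.10 and 3.96 CPM at Day 0. Every library of every later day lay above Day 0. The log2 fold changes in EC were 0.77 ± 0.25 at Day 1, 1.40 ± 0.25 at Day 3, 1.91 ± 0.25 at Day 7, 1.10 ± 0.25 at Day 14 and 1.60 ± 0.25 at Day 28, with edgeR adjusted p = 0.038, 0.00013, 8.4e-06, 0.0038 and 6.1e-05. The Day 1 call was lost without any 1 of the 4 EC Day 0 libraries or Day 1 replicate 2 or 4 (0.54 to 0.81). The FB markers in these EC libraries summed to 105 to 143, 121 to 169, 161 to 329, 94.9 to 146 and 142 to 249 CPM from Day 1 to Day 28, against 74.0 to 98.8 CPM at Day 0. Of the 4, 1, 1, 3, 1 and 4 were called higher and 1 lower (at Day 1). Their part in the Steap3 result was not tested. Without the libraries that stand apart, Day 1 (0.69 ± 0.32, 0.24) and Day 14 (1.02 ± 0.32, 0.051) missed the threshold.

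In CM, Steap3 fell to 2.17, 2.28, 2.19 and 2.26 CPM at Day 1, against 3.33, 5.59, 2.86 and 4.38 CPM at Day 0 (-0.87 ± 0.18, edgeR adjusted p = 0.0018), without overlap. At Day 3 it was lower with overlapping groups (-0.61 ± 0.17, 0.01), and the call was lost without CM Day 0 replicate 2 or Day 3 replicate 1 (-0.50 to -0.41). In HC the call was at Day 3, at 36.0, 33.4, 32.5 and 25.4 CPM, against 18.5, 18.7, 20.3 and 20.0 CPM at Day 0 (0.72 ± 0.17, edgeR adjusted p = 0.0017). By limma on TMM-scaled TPM this HC value was -0.12. HC libraries of Day 1 (21.6 to 30.7 CPM) and Day 14 (22.7 to 25.6 CPM) also lay above each Day 0 library without a call by edgeR. With only the 8 libraries compared both were called (0.48 and 0.35, edgeR adjusted p = 0.0032 and 0.0031), Day 1 by DESeq2 too (0.44, adjusted p = 0.037). In FB, where its TPM is highest, Steap3 was not called at any day (-0.24 to -0.04).

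Slc11a2, the transporter that moves ferrous iron out of endosomes, rose modestly. Its annotated span is overlapped on the other strand by Gm5475, and the sources do not say that counting used the strand, so its reads are uncertain to that extent. In EC it was 17.6, 18, 18.6 and 20.6 CPM at Day 7, against 10.4, 12.7, 11.9 and 15.0 CPM at Day 0, without overlap (0.58 ± 0.13, edgeR adjusted p = 0.0013), and it was also called at Day 3 (0.34 ± 0.13, 0.035), Day 14 (0.53 ± 0.13, 0.0048) and Day 28 (0.38 ± 0.13, 0.026). Single libraries ended the Day 3 call (EC Day 0 replicate 1 or 3, or Day 3 replicate 1, 3 or 4, at 0.26 to 0.34) and the Day 28 call (EC Day 0 replicate 1 or 3, or Day 28 replicate 1 or 3, at 0.30 to 0.37). Without the libraries that stand apart, the values of Day 3, Day 14 and Day 28 were 0.23, 0.43 and 0.22 and none of them was called. Slc11a2 too is higher in FB than in EC by TPM. The FB and resident macrophage markers that were higher in EC at Day 7 and Day 28 moved with it, and their part was not tested. In HC it was 26.5, 35.7, 31.7 and 20.5 CPM at Day 3, against 18.5, 19.6, 17.6 and 20.3 CPM at Day 0. The HC changes were 0.59 ± 0.16 at Day 3, 0.59 ± 0.16 at Day 7 and 0.58 ± 0.16 at Day 14 (edgeR adjusted p = 0.0042, 0.0074 and 0.019), each without overlap with Day 0. The Day 14 call was lost without HC Day 0 replicate 3 or Day 14 replicate 1 (0.49 to 0.54). CM and FB had no call for this gene.

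Slc11a1, which withdraws iron and manganese from phagosomes, rose in HC to 195, 155, 178 and 217 CPM at Day 1 and 173, 183, 169 and 169 CPM at Day 3, against 90.0, 78.3, 85.7 and 86.1 CPM at Day 0. The groups did not overlap, nor did they at Day 7. The changes were 1.13 ± 0.11 at Day 1, 1.03 ± 0.11 at Day 3 and 0.46 ± 0.11 at Day 7 (edgeR adjusted p = 2.9e-08, 6.3e-08 and 0.0019), and every later HC library lay above Day 0 even where the gene was not called (0.21 ± 0.11 at Day 14 and 0.29 ± 0.11 at Day 28). All 7 neutrophil markers and 6 of 7 monocyte markers were higher in the same HC libraries of Day 1 and Day 3. Their part in the Slc11a1 result was not tested. In CM the gene was covered by 37, 63, 30 and 37 reads at Day 3, against 3, 2, 0 and 4 reads at Day 0. The rise was 15.0-fold (3.91 ± 0.46, edgeR adjusted p = 5.5e-07) at Day 3 and 4.64-fold at Day 7 (2.22 ± 0.51, 0.0043), in the same CM libraries in which the macrophage markers rose, and their part in it was not tested. At Day 1, with 5 to 9 reads in CM, it was not called (1.61 ± 0.54, edgeR adjusted p = 0.054), and with a replicate block it was (1.66 ± 0.51, 0.031). EC and FB had no call, at 7.1 to 29.6 estimated reads a library in EC and 1 to 31.5 in FB.

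**Figure D5:**
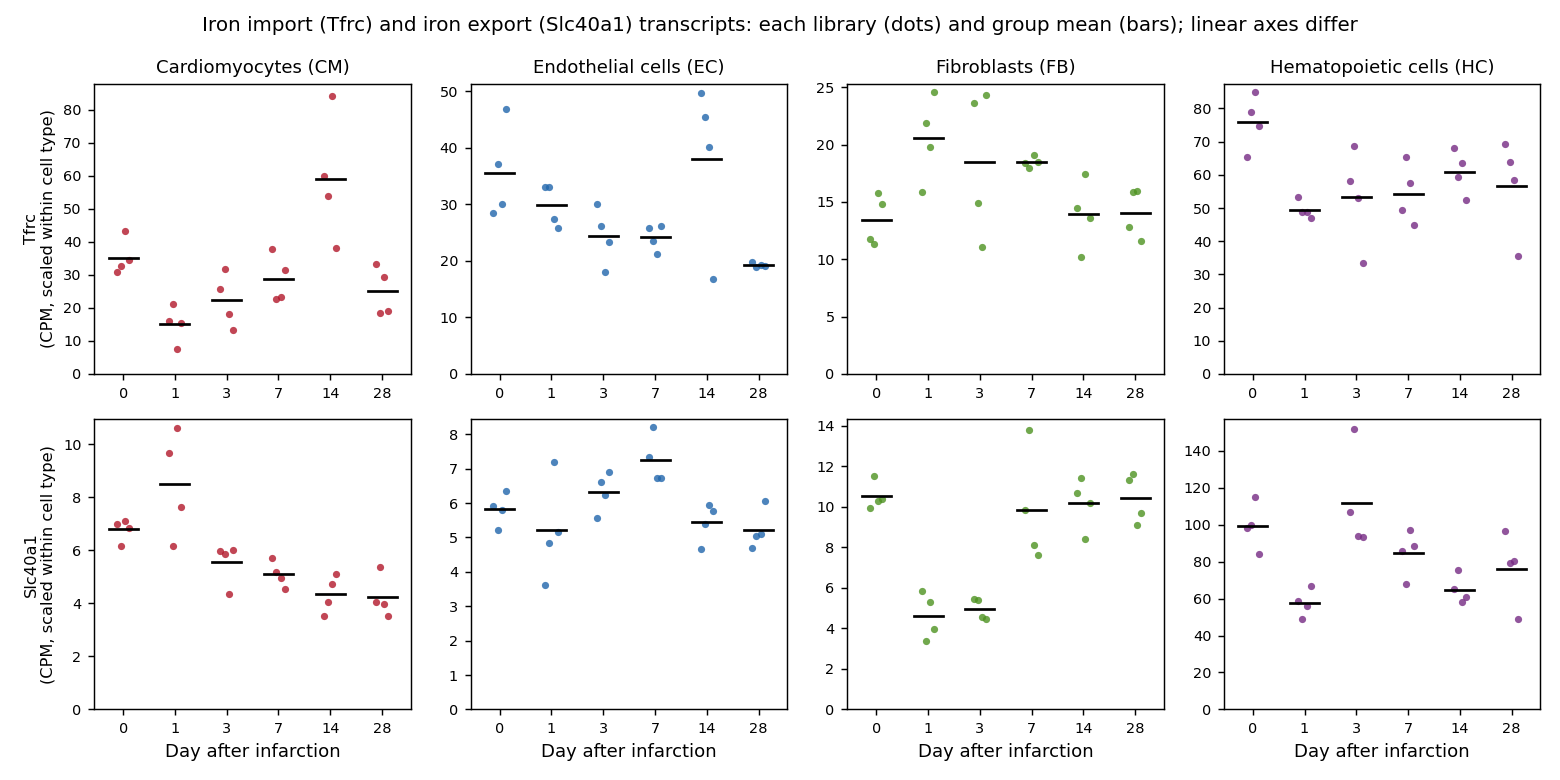
Tfrc (top) and Slc40a1 (bottom) in each library (dots) at each day, with group means as bars, in CPM scaled within a cell type on linear axes that differ between panels. Tfrc is lowest at Day 1 in CM, and Slc40a1 lies below every Day 0 library at Day 1 and Day 3 in FB and at Day 1 in HC.

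The transcript of the iron exporter, Slc40a1, was lower early in fibroblasts and hematopoietic cells. In FB, Slc40a1 was 5.83, 3.39, 5.30 and 3.98 CPM at Day 1 and 5.45, 5.41, 4.55 and 4.48 CPM at Day 3, against 9.94, 11.5, 10.3 and 10.4 CPM at Day 0. All libraries of both days lay below Day 0, though Day 3 replicates 2 and 3 held only 8 and 9.5 estimated reads. The change was 2.28-fold lower at Day 1 (-1.19 ± 0.18, edgeR adjusted p = 7.2e-05) and 2.12-fold lower at Day 3 (-1.08 ± 0.20, 0.00017), and by Day 7 the difference was -0.10 ± 0.18. In HC, Slc40a1 was 58.8, 49.0, 55.8 and 67.0 CPM at Day 1, against 98.3, 100, 115 and 84.2 CPM at Day 0, lower without overlap (-0.79 ± 0.18, edgeR adjusted p = 0.0012), while at Day 3 it was 107, 152, 93.9 and 93.3 CPM and not called (0.16 ± 0.18, 0.48). HC was lower again at Day 14 (-0.61 ± 0.18, 0.025), a call lost without HC Day 0 replicate 2 or 3 or Day 14 replicate 1, 3 or 4 (-0.61 to -0.53). Of 10 resident macrophage markers, 6 were also lower in HC at Day 1, summing to 3430 to 4170 CPM, against 4880 to 5860 CPM at Day 0, and their part in the Day 1 result was not tested.

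In CM, Slc40a1 was 3.52, 4.06, 4.72 and 5.11 CPM at Day 14 and 4.04, 5.38, 3.99 and 3.52 CPM at Day 28, against 7.01, 6.18, 7.12 and 6.85 CPM at Day 0. Both days lay below Day 0 without overlap (-0.64 ± 0.16 and -0.67 ± 0.17, edgeR adjusted p = 0.01 and 0.027), though limma on log2(TPM + 1) gave 0.00 at Day 14. The Day 28 call was lost without CM Day 0 replicate 1, 3 or 4 or Day 28 replicate 3 or 4 (-0.67 to -0.58). In EC Slc40a1 was not called at any day (-0.16 to 0.32). The change of Slc40a1 to Day 1 in FB differed from the mean change in the other 3 cell types by -1.07 ± 0.21 (edgeR adjusted p = 9.9e-05), and that in CM by 1.02 ± 0.20 (0.00031).

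Export set against import within a library, as the ratio of Slc40a1 to Tfrc in TPM, had a median of 0.560 in HC, 0.170 in FB, 0.141 in CM and 0.122 in EC. In 7 of 20 comparisons the later day did not overlap Day 0. The log2 ratio was lower in FB at Day 1 (-3.19 ± 0.62, against -1.73 ± 0.24 at Day 0) and at Day 3 (-4.35 ± 1.30), and in CM at Day 14 (-4.11 ± 0.49, against -2.91 ± 0.23 at Day 0; SD, n = 4 each). It was higher in CM at Day 1 (-1.48 ± 0.65) and Day 3 (-2.02 ± 0.54), in EC at Day 7 (-2.21 ± 0.36, against -3.71 ± 0.82) and in HC at Day 3 (-0.15 ± 0.25, against -0.83 ± 0.16). Each of the 7 had a two-sided exact permutation p of 0.0286, the smallest possible with 4 against 4, and 0.082 adjusted over the 20 comparisons. The lowest FB Day 3 ratios, 0.015 and 0.0494 in replicates 2 and 3, rested on as few as 8 reads of Slc40a1 and 22 of Tfrc. By the CPM given above, the ratios of replicates 2 and 3 were the highest of FB Day 3, though below those of FB Day 0.

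Whether a change differed between cell types was tested directly, as the change from Day 0 in a cell type against the mean change in the other 3. For the change to Day 1, 4 members were called in CM (9.42% of all genes), 2 in EC (4.43%), 3 for FB (10.4%) and 2 for HC (21.9%). For the change to Day 3, 5 were called in CM (21.3%), 3 in EC (16.5%), 6 for FB (33.7%) and 5 for HC (29.3%). To Day 3 the Hmox1 change was above the mean of the other 3 in CM (3.45 ± 0.33) and HC (1.48 ± 0.26; edgeR adjusted p = 2.8e-13 and 2.4e-06). Its EC change did not part from the mean of the rest (-0.21 ± 0.26, 0.67). The HC change was itself smaller than that in CM, and FB, where Hmox1 fell, is part of each of these means. Fth1 rose more in HC (1.92 ± 0.28, edgeR adjusted p = 2.9e-08). The Steap3 change was above the mean of the other 3 in EC (1.47 ± 0.23, 2.7e-06). It was below that mean in CM (-1.13 ± 0.23, 0.00012), where Steap3 fell, and in FB (-1.0 ± 0.22, 0.0002), where Steap3 was not called against Day 0. Some of these directions turned with the scale: by limma on log2(TPM + 1) the Steap3 difference in CM was 0.44. Slc11a1 changed more in CM at Day 3 (3.75 ± 0.45, edgeR adjusted p = 4.7e-10), from the few reads given above, and by limma on log2(TPM + 1) that difference was -0.16. The larger change of Hmox1 in CM to Day 1 (2.26) was -0.69 on that scale. Of the 30 calls, 14 were lost when the libraries of 1 replicate number were left out. Among them, Fth1 in EC to Day 3 (-0.77, edgeR adjusted p = 0.041) was lost without replicate 1, 3 or 4 (-0.83 to -0.61), with a replicate block (-0.68, 0.061) and without the libraries that stand apart (-0.73, 0.071). Both EC calls to Day 1 were of this kind, Hmox1 (-0.84) being lost without replicate 1, 3 or 4 and Steap3 (1.01) without replicate 2 or 4, and so were both HC calls to Day 1, Fth1 (0.96) being lost without replicate 1 or 4 and Hmox1 (0.96) without replicate 4.

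Day 28 was also set against Day 3. Against Day 3, Day 28 had 2 members called in CM, both lower (14.5% of all genes), 3 in EC, all lower (47.6%), 1 in FB, higher (50.7%), and 7 in HC, 6 lower and 1 higher (42.0%). Hmox1 was lower at Day 28 than at Day 3, with log2 changes of -4.08 ± 0.31 in CM, -3.70 ± 0.21 in HC and -1.66 ± 0.18 in EC, and so was Slc11a1, at -3.24 ± 0.44 in CM and -0.74 ± 0.11 in HC (edgeR adjusted p of 1.2e-05 or less for these 5). In EC the 4 genes called higher at Day 3 (Hmox1, Ftl1, Steap3 and Slc11a2) were called higher at Day 28 as well, though 2 of these Day 28 calls did not hold throughout. With pseudogene reads added Ftl1 was not called at Day 28 (0.15 ± 0.12, edgeR adjusted p = 0.38). The Day 28 call of Slc11a2 was lost without some single libraries and without the libraries that stand apart. Steap3 and Slc11a2 did not differ between these days beyond their error (0.20 ± 0.24 and 0.04 ± 0.13, edgeR adjusted p = 0.51 and 0.81). Fth1 in HC was lower (-1.35 ± 0.26, edgeR adjusted p = 0.00033), and Slc40a1 in FB was higher by 1.07 ± 0.20 (0.00019). In HC the calls of Slc40a1, Slc11a2, Blvrb and Steap3 for this contrast were each lost without the libraries that stand apart (-0.33, -0.32, 0.45 and -0.31). HC Day 7 and Day 1, the 2 HC days deposited as transcript entries, were also compared with each other: 3 members were called (22.3% of all genes), Hmox1 (-1.68 ± 0.19) and Slc11a1 (-0.67 ± 0.11) lower and Slc40a1 (0.56 ± 0.18) higher at Day 7. In EC the lower Fth1 (-0.41) at Day 28 than at Day 3 was lost with a replicate block (edgeR adjusted p = 0.058). The Slc40a1 call was lost without HC Day 1 replicate 1, 2 or 3 or Day 7 replicate 1, 3 or 4 (0.49 to 0.57).

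Of 58 other genes of heme and iron metabolism, 57 had values. At Day 1, 11 were higher and 3 lower of 50 tested in CM, 10 and 3 of 53 in EC, 12 and 2 of 52 for FB, and 13 and 15 of 52 for HC. Of all genes, 11.4%, 19.0%, 17.9% and 41.8% were called in those comparisons. At Day 3 the counts were 9 and 7 in CM, 13 and 9 in EC, 19 and 12 for FB, and 15 and 15 for HC, and the medians of the tested genes were -0.05, 0.01, 0.14 and 0.02 in that order. Of all genes, 30.5%, 45.5%, 49.1% and 46.4% were called, with medians of -0.06, -0.03, -0.02 and -0.02. Lcn2, which binds siderophores and so withholds iron from bacteria, and Hp, which binds free hemoglobin, were higher at Day 1 in all 4 cell types. Hp was called higher on every later day in each. The Lcn2 log2 fold changes at Day 1 were 6.44 ± 0.45 in CM, 5.13 ± 0.54 in EC, 5.79 ± 0.52 for FB and 5.87 ± 0.62 for HC (edgeR adjusted p of 1.8e-06 or less), and the HC libraries held 33.0 to 80.4 CPM, against 0.652 to 1.16 CPM at Day 0. All 7 neutrophil markers were higher in the same HC libraries of Day 1, and their part in the HC rises of Lcn2 and Hp was not tested.

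Of the ferrireductases related to Steap3, Steap1 and Steap2 were called higher in CM, EC and FB at both Day 1 and Day 3. In HC, Steap2 was called higher at Day 28. Steap4 fell in EC and HC at Day 3. Steap1 was higher in FB by 4.85 ± 0.56 at Day 1 and 5.68 ± 0.58 at Day 3, and Steap2 by 2.13 ± 0.15 at Day 3 in FB and 2.31 ± 0.30 in EC. Steap4 was 44.3 to 57.1 CPM in EC at Day 3, against 92.8 to 133 CPM at Day 0 (-1.10 ± 0.20, edgeR adjusted p = 0.00012), and it was called higher in CM at Day 7 and Day 14. Slc39a14, an importer of iron that is not bound to transferrin, was 205 to 242 CPM in FB at Day 1, against 57.5 to 69.6 CPM at Day 0 (1.80 ± 0.15, edgeR adjusted p = 6.1e-08). In HC, Hp rose by 4.70 ± 0.45 at Day 1, and Fbxl5, the iron sensor that degrades an iron regulatory protein, was 355 to 547 CPM, against 92.3 to 108 CPM at Day 0 (2.27 ± 0.14, edgeR adjusted p = 9.9e-11). In CM, Alas1, the first enzyme of heme synthesis outside red cells, fell to 19.4 to 21 CPM at Day 1, against 31 to 57.5 CPM at Day 0 (-1.03 ± 0.15, edgeR adjusted p = 4.6e-05), and the mitochondrial transporter Abcb10 (-0.69 ± 0.10) and the heme synthesis enzyme Uros (-0.61 ± 0.14) were lower at Day 3. Alas2, the red cell form of that enzyme, was lower in HC at Day 3 (-2.20 ± 0.41), where 7 of 8 erythroid markers tested were lower and summed to 117 to 932 CPM, against 890 to 1530 CPM at Day 0.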

How the data were processed

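Total RNA was sequenced in 96 libraries after rRNA depletion. The submitters' processing notes name Trim Galore, STAR 2.28 and Salmon with the mm10 build; by the methods, trimming came first, then a 2-pass alignment and the estimate of transcript levels by the authors. They deposited 2 units per library, estimated counts and TPM, for transcripts in 56 files and for genes in 40 (the HC Day 1 and Day 7 libraries are transcript files and the other HC libraries gene files). Here the deposited estimated counts and the deposited TPM were summed to the genes of GENCODE M21, and 147 genes that the 2 kinds of file treat differently, none of them a member, were left out of fits over HC or over all cell types. Entries that name no gene held 0.0196% to 0.363% of the reads and were left out. Whether counting used the strand is not given in the sources used here.

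Rounded counts were tested with edgeR 4.0.16 (quasi-likelihood, robust, TMM, filterByExpr) in R 4.3.3, with 1 fit for each cell type over its 24 libraries and 1 over all 96, and called at a Benjamini-Hochberg adjusted p under 0.05 over all genes tested. CPM are scaled by TMM within a cell type and compare days, not cell types. TPM were used to compare genes and cell types, and are scaled to a library total that includes rRNA genes. Ratios were compared by exact permutation tests (scipy 1.17.1, Python 3.11.15, pandas 2.3.3). The test was tried on simulated data first. The alternatives were DESeq2 1.42.0, RLE size factors, limma 3.58.1 on log2(TPM + 1) and log2(TPM + 0.1), no filter, rRNA genes left out, reads of annotated pseudogenes added to Fth1 (Fth-ps2 and Fth-ps3) and Ftl1 (Ftl1-ps1, Ftl1-ps2 and Ftl2-ps), a replicate block, fits on only the 8 libraries of a comparison, fits without the 8 libraries that stand apart, each library left out in turn, and, added after seeing the data, limma on TMM-scaled TPM. Other pathway genes were named by a rule: per cell type, up to 5 at Day 3 and 3 at Day 1 with the largest change among those called, with a mean of at least 5 CPM and groups that do not overlap, and a selection of these is given. For each member, the 3 genes most like it were those with the highest Pearson correlation of log2(CPM + 1) group means. The members and lists were chosen with earlier results of these data known. Each library is a pool of mice, so p-values measure the spread between pools. Same-numbered CM libraries deviated together (every correlation above 0.1) in Day 1 and Day 3 against Day 0 (0.28 to 0.47 and 0.22 to 0.47) and in Day 28 against Day 3 (0.19 to 0.38), a pairing that comes from the data and not from the labels. No 2 replicates agreed within sampling noise (lowest chi-square per degree of freedom 6.53).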

Additional observations from a re-analysis of the deposited data

Results flagged for a closer look

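In 9 of the 216 groups of 4 libraries, 1 library lay far from the other 3. Chance alone marks about 1 in 20 groups. Fth1 was 7840 CPM in HC Day 3 replicate 4, against 3880 CPM in the next library, and 527 CPM in CM Day 7 replicate 3, against 366 CPM. Blvrb was 149 CPM in HC Day 28 replicate 4, against 71.7 CPM, and 3.28 CPM in EC Day 14 replicate 1, against 3.93 CPM. Steap3 was low in HC Day 28 replicate 4 (14.3 CPM, the next 25.2), in FB Day 28 replicate 4 (94.2, the next 111) and in CM Day 7 replicate 2 (2.43, the next 3.51). Slc40a1 was 4.36 CPM in CM Day 3 replicate 3, against 5.85 CPM, and Slc11a1 was 0.479 CPM in FB Day 0 replicate 4, against 0.301 CPM. HC Day 28 replicate 4 and FB Day 28 replicate 4 are among the libraries that stand apart.

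The change from Day 0 in a cell type differed from the mean change in the other 3 in 30 tests by edgeR (log2 differences). To Day 1 they were Hmox1 in CM (2.26), HC (0.96), EC (-0.84) and FB (-2.37), Tfrc in FB (1.23) and CM (-1.16), Slc40a1 in CM (1.02) and FB (-1.07), Steap3 in EC (1.01) and CM (-1.22), and Fth1 in HC (0.96). To Day 3 they were Hmox1 in CM (3.45), HC (1.48) and FB (-4.72), Slc11a1 in CM (3.75), FB (-1.71) and EC (-1.91), Fth1 in HC (1.92), EC (-0.77) and FB (-0.81), and Steap3 in EC (1.47), HC (0.67), FB (-1.0) and CM (-1.13). The rest at Day 3 were Slc11a2 in HC (0.65) and CM (-0.61), Slc40a1 in HC (0.70) and FB (-1.29), Tfrc in FB (0.92) and Blvrb in CM (0.78). The 4 contrasts of a day share the same libraries.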

How the results depend on the processing

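Of 144 called member results, 99 were kept under every alternative on counts that was run and 57 under every alternative. DESeq2 and RLE size factors kept 143 each. The replicate block kept 141, lost 3 and gained 9. Its counts of members called over the 5 days were 13 in CM, 22 in EC, 9 for FB and 26 for HC, against 12, 22, 9 and 22 without the block. Deviations of same-numbered libraries correlated above 0.1 in 40 of 100 pairs within a cell type and in 45 of 144 across cell types, and all 4 pairs did so in 3 of 25 comparisons within a cell type, all of them in CM. There the replicate block changed 1 call of a member, Slc11a1 at Day 1 (adjusted p = 0.031, against 0.054). In the other comparisons the samples share only a number.

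With single libraries left out (all libraries of 1 replicate number in the fit over all cell types), counts ranged over 10 to 13 in CM, 19 to 23 in EC, 6 to 10 for FB and 17 to 23 for HC for the days, over 2 to 2, 2 to 3, 1 to 3 and 3 to 7 for Day 28 against Day 3, and over 2 to 3 for HC Day 7 against Day 1. They were 8, 9, 9 and 7 throughout for the cell types, 4 to 4, 0 to 1, 3 to 3 and 1 to 2 for the changes to Day 1, and 4 to 5, 2 to 3, 4 to 5 and 2 to 5 for those to Day 3.

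Counts moved by over 1.5 times as follows. By limma on log2(TPM + 1) and log2(TPM + 0.1) they were 7 and 7 in CM and 9 and 9 in HC over the days, 6 and 6 in EC, 3 and 4 in FB and 1 and 1 in HC for Day 28 against Day 3, 0 and 1 in CM and 0 and 0 in EC for the change to Day 1, and 1 and 1 in EC for the change to Day 3. With the first alone, FB (1) and HC (4) moved at Day 1 and CM (0) at Day 3, and with the second alone HC (3) at Day 3. On TMM-scaled TPM they were 11 in HC over the days, 1 in EC and 4 in HC for Day 28 against Day 3, 0 in EC at Day 1, and 3 in CM and 2 in HC at Day 3. Without the 8 libraries that stand apart they were 16 in FB over the days, 4 in FB and 4 in HC for Day 28 against Day 3, and 0 in EC and 4 in HC for the change to Day 1. For Day 28 against Day 3, FB had 2 with rRNA genes left out and 2 with pseudogene reads added, and HC 3 with only the 8 libraries compared. EC at Day 1 had 1 with no filter. The ferritin ratio parted from Day 0 in 8 comparisons with pseudogenes added, against 5. The cause was not tested.

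Directions turned by limma on log2(TPM + 1) and log2(TPM + 0.1), and on the first of these scales the median of all genes moved by 0.51 in EC at Day 28 and by -0.70 in FB at Day 3, against 0.03 and -0.02 by edgeR. Both gave Fth1 0.77 and 0.77 in EC at Day 28 and 0.56 and 0.56 in EC for Day 28 against Day 3, Ftl1 0.53 and 0.53 in EC for that contrast, Blvrb 0.31 and 0.43 in EC at Day 7, Slc11a1 0.10 and 0.10 for HC Day 7 against Day 1, and in CM against the rest Fth1 -1.17 and -1.17, Tfrc -0.95 and -1.19 and Slc40a1 -0.92 and -1.55. In FB against the rest Fth1 was 0.17 and 0.17 and Blvrb 0.19 and 0.49. For the change to Day 3, Slc11a2 in CM was 0.14 and 0.22 and Fth1 in EC 0.07 and 0.07. The first alone gave Slc40a1 0.00 in CM at Day 14, Steap3 0.06 in HC for Day 28 against Day 3, Hmox1 -0.69 in CM for the change to Day 1, and for that to Day 3 Slc11a1 -0.16 and Steap3 0.44 in CM. The second alone gave Tfrc 0.06 in EC at Day 28 and Hmox1 0.09 in EC for the change to Day 1. Steap3 was -0.12 in HC at Day 3 on TMM-scaled TPM and 0.20 in CM against the rest with Day 0 libraries only. Slc11a1 in CM at Day 7 could not be fitted with only the 8 libraries compared. Depth limits Slc11a1 outside HC, Hmox1 in CM at Day 0 and FB Day 3 replicates 2 and 3.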

Other observations

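By the course of their levels over the 24 groups, the genes most like each member were found among 13855 genes, those with a mean of at least 5 CPM in at least 1 group, as a description over group means of 4 cell types and 6 days that share their libraries. Slc11a1 was most like Vav1, Ncf1 and Spi1 (Pearson's r = 0.998 each), Hmox1 most like the chemokine gene Ccl7 (0.96), Tmem19 and Myd88, Fth1 most like Creg1 (0.967), Ftl1 most like Slc29a3 (0.983), Slc40a1 most like Wwp1 (0.972), Tfrc most like Mtr (0.967), Blvrb most like Pepd (0.976), and Steap3 most like Tnfaip2 (0.97). Slc11a2 was most like 9530068E07Rik (0.929), and Steap3 was among the 3 genes most like it (0.918).

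Among other genes of iron and heme regulation, Nfe2l2, which encodes a regulator of the response to oxidative stress, was 27.0 to 32.7 CPM in CM at Day 1, against 15.8 to 20.1 CPM at Day 0 (log2 0.73 ± 0.11, edgeR adjusted p = 5.4e-05). In EC at Day 3, Hmox2, the constitutive heme oxygenase, was 25.4 to 30.2 CPM, against 7.63 to 18.1 CPM at Day 0 (1.05 ± 0.19, edgeR adjusted p = 0.00016), and the ferrireductase Cybrd1 was 1.79 to 3.09 CPM, against 6.29 to 15.1 CPM at Day 0 (-2.06 ± 0.29, 8.6e-06). In HC at Day 3, Hfe2, which encodes the BMP co-receptor hemojuvelin, and Bmp6 were lower (-3.28 ± 0.27 and -2.50 ± 0.30, edgeR adjusted p = 2.8e-09 and 3.8e-07). In the same libraries all 4 CM, all 4 EC and all 4 FB markers were lower too, with the CM markers summing to 215 to 477 CPM, against 1610 to 2640 CPM at Day 0, and the EC markers to 99.4 to 108 CPM, against 408 to 624 CPM. Their part in these results was not tested.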
